A study of Saccharomyces cerevisiae with 8 samples.

Results

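The 10 genes described here make the branched-chain amino acids leucine, isoleucine and valine in budding yeast (Saccharomyces cerevisiae): ILV2, ILV6, ILV5, ILV3, LEU4, LEU9, LEU1, BAT1, BAT2 and the carrier gene OAC1. They were chosen by their systematic names as a pathway, and make up 10 of the 6713 open reading frames listed in every library. All 10 were measured in all 8 libraries and passed the filter on low counts. The set was proposed with earlier results of these data in view, and which values entered that choice is unstated. Every comparison is therefore treated as used, and the calls below describe the libraries and support nothing further.

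RNA came from BY4741, a MATa laboratory strain in which LEU2, URA3 and MET17 are deleted, so all groups, controls included, lack the enzyme of the leucine branch that LEU2 encodes. The 4 groups held 2 replicates each. Inductant 1 and inductant 2 were wild-type cells labelled [SMAUG+], in which VTS1 had been overexpressed from a plasmid for 48 h, after which the plasmid was removed and the cells were passaged over several generations. The naive group was untreated wild type, and the vts1 deletion group was untreated and lacked the gene. Vts1 is the yeast Smaug protein, which binds RNA hairpins and promotes decay of the bound transcript. Cultures of 50 ml were harvested in mid-exponential growth at an OD600 near 0.6, and ribosomal RNA was depleted from total RNA. The labels do not say how inductant 1 and inductant 2 differ from each other, and the growth medium is unstated. A lower level in these bulk cultures can come from fewer cells with the transcript or from less of it per cell, which cannot be told apart.

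Valine and isoleucine are made by a shared set of mitochondrial enzymes, and leucine branches off from the 2-oxo acid that precedes valine. The intermediate alpha-isopropylmalate is made in mitochondria, is carried to the cytosol and is converted there to the 2-oxo acid of leucine. The transcription factor Leu3 binds the promoters of several of these genes and activates them when alpha-isopropylmalate is bound to it, while Gcn4 activates amino acid synthesis genes in amino acid starvation.

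In build R64 of the RefSeq genome the shared enzymes are encoded by ILV2 (YMR108W) at chromosome XIII, 484084 to 486147, ILV6 (YCL009C) at chromosome III, 104619 to 105548, ILV5 (YLR355C) at chromosome XII, 838066 to 839253, and ILV3 (YJR016C) at chromosome X, 464451 to 466208. Those of the leucine branch are encoded by LEU4 (YNL104C) at chromosome XIV, 424895 to 426754, LEU9 (YOR108W) at chromosome XV, 523027 to 524841, and LEU1 (YGL009C) at chromosome VII, 476313 to 478652, and the carrier by OAC1 (YKL120W) at chromosome XI, 217344 to 218318. The aminotransferases are encoded by BAT1 (YHR208W) at chromosome VIII, 517532 to 518713, and BAT2 (YJR148W) at chromosome X, 705744 to 706874.

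The sequences shown are the Leu3 motif matches of the members, because the size of the differences reported below varied among genes that carry one. In the 500 bases before each start codon, the Leu3 motif CCGNNNNCGG, which reads the same on both strands, was found in 7 of the 10 members. It occurred in 197 of 5993 windows of the same length, or 3.29%. Each run below reads 5′ to 3′ on the strand of the gene in build R64 of the RefSeq genome, with the motif match in capitals and 20 flanking bases on each side. LEU1 holds 2 matches and the others 1. The runs lie at chromosome VII, 478810 to 478889 (LEU1), chromosome XV, 522730 to 522779 (LEU9), chromosome VIII, 517365 to 517414 (BAT1), chromosome X, 705390 to 705439 (BAT2), chromosome XIII, 483596 to 483645 (ILV2), chromosome XII, 839601 to 839650 (ILV5) and chromosome XI, 216840 to 216889 (OAC1). LEU1 and ILV5 lie on the minus strand and the other 5 on the plus strand.
LEU1: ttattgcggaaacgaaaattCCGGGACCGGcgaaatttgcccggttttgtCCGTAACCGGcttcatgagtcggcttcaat
LEU9: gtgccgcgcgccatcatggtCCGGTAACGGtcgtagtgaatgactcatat
BAT1: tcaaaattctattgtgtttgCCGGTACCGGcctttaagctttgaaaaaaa
BAT2: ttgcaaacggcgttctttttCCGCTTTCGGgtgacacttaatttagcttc
ILV2: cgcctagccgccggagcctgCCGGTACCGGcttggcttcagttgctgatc
ILV5: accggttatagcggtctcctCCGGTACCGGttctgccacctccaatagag
OAC1: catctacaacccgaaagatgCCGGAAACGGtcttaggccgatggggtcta

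The matches of BAT1, ILV2 and ILV5 hold the same 10 letters, CCGGTACCGG. They start 147, 468 and 377 bases before the start codon. LEU4, ILV3 and ILV6 had no match in this window. The Gcn4 motif TGACTC, searched on both strands, was found in 8 of the 10 members, all but BAT2 and ILV2, and in 12.7% of all windows. ILV5 held 3 matches and the other 7 held 1 each. The Gcn4 match of LEU9 lies in the printed run, outside the capitals, and in no member did a Gcn4 match overlap a Leu3 match. A match describes these letters and is not a measured binding site.

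Libraries held between 18431474 and 27501966 estimated counts. VTS1 had 472 to 794 counts in the 6 wild-type libraries and 0 and 2 in the deletion. LEU2, URA3 and MET17 were at 0 in all 8 libraries, and the fourth marker of the strain, HIS3, whose deletion is partial, was not. Of 6 MATa markers, MFA1 and MFA2 were at 0 in every library and the other 4 were detected, and the summed level of the list was 817 and 802 CPM (counts scaled to library size) in the deletion against 581 to 683 CPM elsewhere. MFA1 and MFA2 are the shortest of the mating-type markers, at 111 and 117 bases, and the part of length in their zeros was not tested. Of 4 MATalpha markers 0 were at 0, though MF(ALPHA)1 held only 1 to 4 estimated counts per library. The summed level of the 4 was 24.6 to 32.1 CPM. The part of either list in the results below was not tested. The naive libraries stood furthest apart among the 4 pairs, with a median absolute difference of 0.15 (log2) over all genes against 0.079 in the deletion pair, and the members' median difference between the naive replicates was 0.18.

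Levels of different genes were compared in TPM (abundance per transcript length, scaled to a fixed total per library). In naive cells ILV5 stood highest, at 757 ± 67 TPM (mean ± SD, n = 2). It was followed by ILV3 at 526 ± 121, ILV6 at 407 ± 65, LEU1 at 355 ± 22, BAT1 at 339 ± 30, LEU4 at 304 ± 91, ILV2 at 264 ± 35, BAT2 at 196 ± 14, LEU9 at 113 ± 24 and OAC1 at 72.7 ± 4.0 TPM. From ILV3 down to ILV2 the ranges of mean ± SD of neighbours in this order overlapped. ILV5, ILV3 and ILV6 held ranks 1, 2 and 3, and OAC1 rank 10, in all 4 groups. LEU1 ranked 4 in naive cells and 8 in the deletion, whereas BAT2 ranked 8 and 5. The summed level of the 10 genes was 2748 and 2746 TPM in the deletion, 3031 and 3638 TPM in naive, 3967 and 3749 TPM in inductant 1 and 3984 and 4199 TPM in inductant 2. ILV5 alone made up 39.5% and 38.9% of that sum in the deletion and 20.1% to 27.1% in the other 6 libraries.

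**Figure D1:**
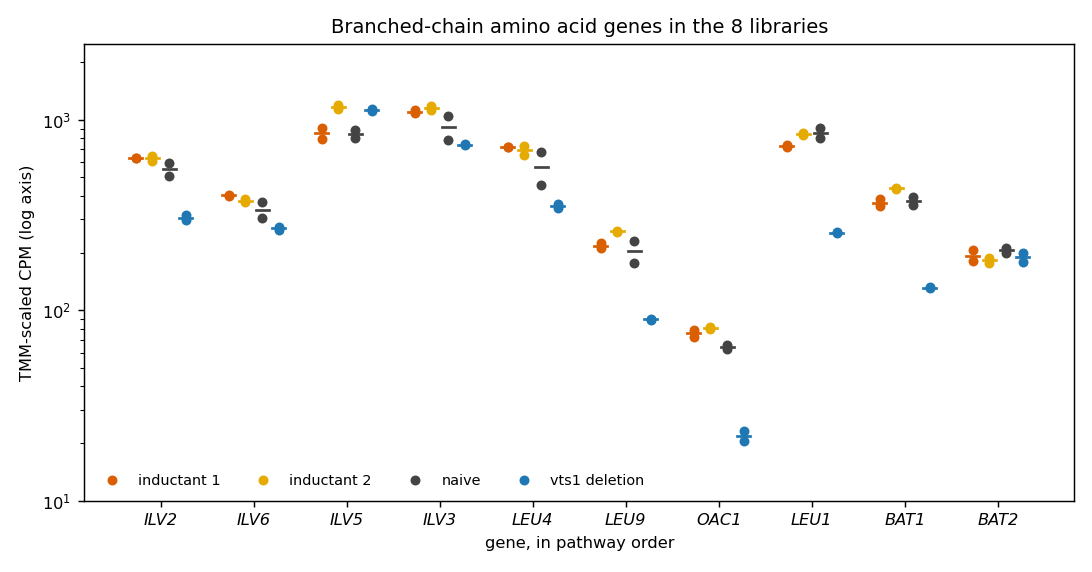
TMM-scaled CPM (log axis) of the 10 genes in pathway order. Each point is 1 library, colours give the 4 groups and short bars their means. The deletion points lie below all others for 8 genes, overlap with the rest for BAT2 and sit with inductant 2 at the top for ILV5.

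In the vts1 deletion 7 of the 10 genes were lower than in naive cells, 1 was higher and 2 were not called, at an adjusted p under 0.05 by edgeR's quasi-likelihood test with Benjamini-Hochberg adjustment over 6230 genes. Over all genes tested 26.3% were called in this comparison, 14.6% lower and 11.7% higher. The median log2 fold change of the members was -0.76, against 0 for all genes. LEU1, OAC1, BAT1 and LEU9 fell most, by 2.28-fold to 3.32-fold. Both deletion libraries lay below all other 6 in 8 members by TMM-scaled CPM, a pattern found in 19.8% of all genes tested. Of these 8, ILV3 was the one without a call against naive. In TPM it lacked this order, at 440 in naive replicate 1 against 451 and 454 in the deletion. In all values below, CPM are scaled with TMM and serve to compare libraries for 1 gene. A fit without 1 library leaves 1 in that group, which then adds no spread. Its adjusted p-values cannot be set beside those of the fit to all libraries. A call lost or gained in such a fit is therefore not by itself a trait of that gene.

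Among the enzymes shared by valine and isoleucine, ILV2 encodes the catalytic subunit of acetolactate synthase. It stood at 315 and 298 CPM in the deletion, 506 and 593 CPM in naive, 629 and 630 CPM in inductant 1 and 609 and 644 CPM in inductant 2. The deletion libraries were the lowest and did not overlap with any other group. ILV2 fell by 0.84 ± 0.08 (SE) on the log2 scale from naive to deletion (adjusted p = 4.98e-05). ILV6, which encodes the regulatory subunit of the same enzyme, stood at 274 and 264 CPM in the deletion and 305 and 370 CPM in naive. The inductants held 400 and 403 CPM and 368 and 385 CPM, above the deletion in every library. ILV6 fell by 0.33 ± 0.09 from naive to deletion (adjusted p = 0.0183). The change was -0.18 without naive replicate 2, -0.35 without deletion replicate 1 and -0.30 without deletion replicate 2. The call was lost with limma on log2 TPM at either pseudocount, 1 or 0.1 (-0.23, adjusted p = 0.155 and 0.156) and with only the groups compared (-0.32, adjusted p = 0.0564). Without naive replicate 1 the change was -0.45.

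ILV5, the gene of acetohydroxyacid reductoisomerase, which also takes part in keeping mitochondrial DNA stable, went the other way. It stood at 1136 and 1119 CPM in the deletion, 804 and 882 CPM in naive, 903 and 792 CPM in inductant 1 and 1198 and 1141 CPM in inductant 2. Both deletion libraries lay above both naive libraries, an order found in 32.4% of all genes tested. Both inductant 1 libraries lay below both inductant 2 libraries, as in 24.1% of all genes tested. From naive to deletion ILV5 rose by 0.42 ± 0.08 (adjusted p = 0.0029). ILV3, dihydroxyacid dehydratase, an iron-sulfur enzyme, stood at 739 and 745 CPM in the deletion, 781 and 1050 CPM in naive, 1121 and 1089 CPM in inductant 1 and 1127 and 1180 CPM in inductant 2. The inductants were highest, and the naive replicates differed from each other by more than the lower of them differed from the deletion. The log2 fold change of ILV3 was -0.30 ± 0.12 (adjusted p = 0.0828). Without naive replicate 1 it was -0.49 and without naive replicate 2 it was -0.074.

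In the leucine branch, LEU4 and LEU9 encode the alpha-isopropylmalate synthases, paralogs whose proteins share 82.9% of 603 aligned residues. LEU4 stood at 346 and 361 CPM in the deletion, 453 and 674 CPM in naive, 716 and 719 CPM in inductant 1 and 655 and 728 CPM in inductant 2. The deletion was lowest and the naive pair was split, with replicate 2 inside the range of the inductants. LEU4 fell by 0.67 ± 0.17 from naive to deletion (adjusted p = 0.0278). That call was lost with limma at either pseudocount (-0.55, adjusted p = 0.0649 and 0.0650) and with only the groups compared (-0.67, adjusted p = 0.0727). The change was -0.64 without deletion replicate 1 and -0.70 without deletion replicate 2. Leaving out naive replicate 1 gave -0.92 and leaving out replicate 2 gave -0.36. LEU9 stood at 88.8 and 90.4 CPM in the deletion, 176 and 232 CPM in naive, 225 and 211 CPM in inductant 1 and 258 and 262 CPM in inductant 2. It fell by 1.19 ± 0.11 (adjusted p = 7.15e-05), with both deletion libraries well below the rest, and by 1.36 and 0.98 without naive replicate 1 and 2.

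OAC1 encodes the carrier of the inner mitochondrial membrane that exports alpha-isopropylmalate and transports oxaloacetate. It stood at 20.7 and 23.1 CPM in the deletion, 62.4 and 65.4 CPM in naive, 78.5 and 72.7 CPM in inductant 1 and 79.6 and 82.0 CPM in inductant 2. Both naive libraries lay below all 4 inductant libraries, and the deletion lay far below them. OAC1 fell by 1.55 ± 0.09 from naive to deletion (adjusted p = 1.14e-06). LEU1 encodes isopropylmalate isomerase, the cytosolic iron-sulfur enzyme that takes up the exported product. It stood at 254 and 258 CPM in the deletion, 900 and 799 CPM in naive, 720 and 741 CPM in inductant 1 and 855 and 829 CPM in inductant 2. LEU1 had the largest change of the 10 from naive to deletion, a fall of 1.73 ± 0.07 (adjusted p = 1.91e-07), to a level 3.32-fold lower.

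BAT1 and BAT2 encode the mitochondrial and the cytosolic branched-chain aminotransferase, whose proteins share 77.1% of 376 aligned residues. BAT1 stood at 130 and 132 CPM in the deletion, 358 and 393 CPM in naive, 384 and 351 CPM in inductant 1 and 434 and 438 CPM in inductant 2. It fell by 1.52 ± 0.07 from naive to deletion (adjusted p = 4.02e-07). BAT2 stood at 180 and 200 CPM in the deletion, 199 and 213 CPM in naive, 181 and 206 CPM in inductant 1 and 176 and 189 CPM in inductant 2. The deletion overlapped with every other group. The log2 fold change from naive to deletion was -0.12 ± 0.09 (adjusted p = 0.349). The range of its group means was 0.18 (log2), against 1.74 for BAT1.

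**Figure D2:**
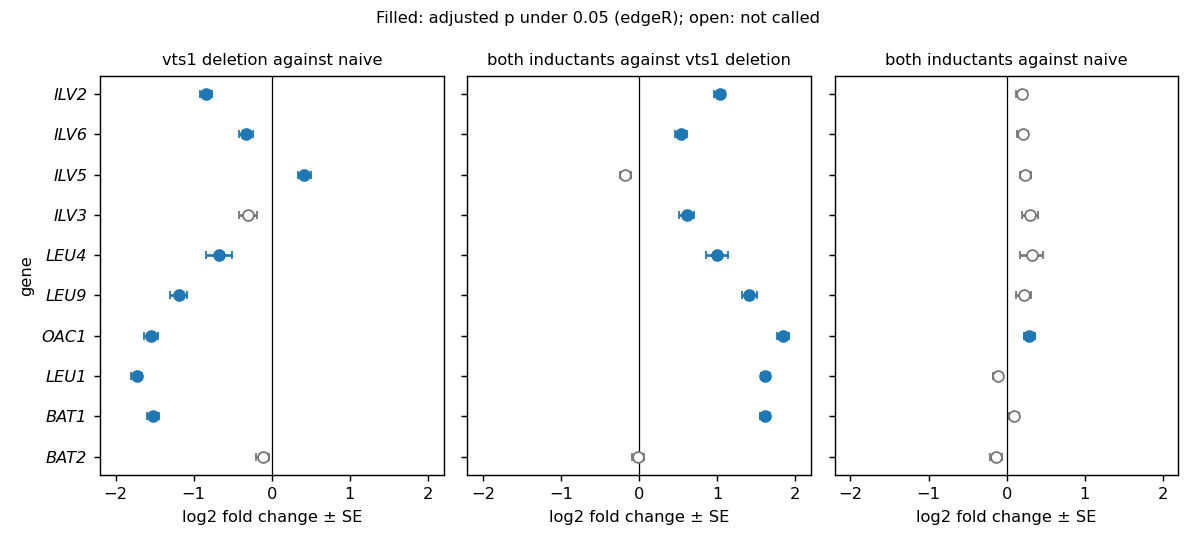
Log2 fold change ± SE of each gene in 3 comparisons that share libraries, from the edgeR fit to all 8 libraries. Filled points passed an adjusted p of 0.05. The left panel runs from -1.73 for LEU1 to 0.42 for ILV5, and the right panel stays between -0.13 and 0.32.

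The ratio of partner genes within a library does not depend on the scaling between libraries. BAT1 over BAT2, as a ratio of TPM, was 0.686 and 0.624 in the deletion, 1.71 and 1.75 in naive, 2.02 and 1.62 in inductant 1 and 2.34 and 2.202 in inductant 2. Thus BAT2 was the more abundant transcript of the pair in both deletion libraries and BAT1 in the other 6. LEU4 over LEU9 was 3.79 and 3.89 in the deletion, above the range of 2.47 to 3.32 elsewhere. ILV2 over ILV6 was 0.459 and 0.450 in the deletion, below the range of 0.623 to 0.667 elsewhere. BAT1 and BAT2 have no 31-letter stretch in common with each other or with another listed coding sequence, so reads of the pair can be told apart. LEU4 and LEU9 share 31 such stretches, 1.69% and 1.74% of their own, and the other 6 genes share none.

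**Figure D3:**
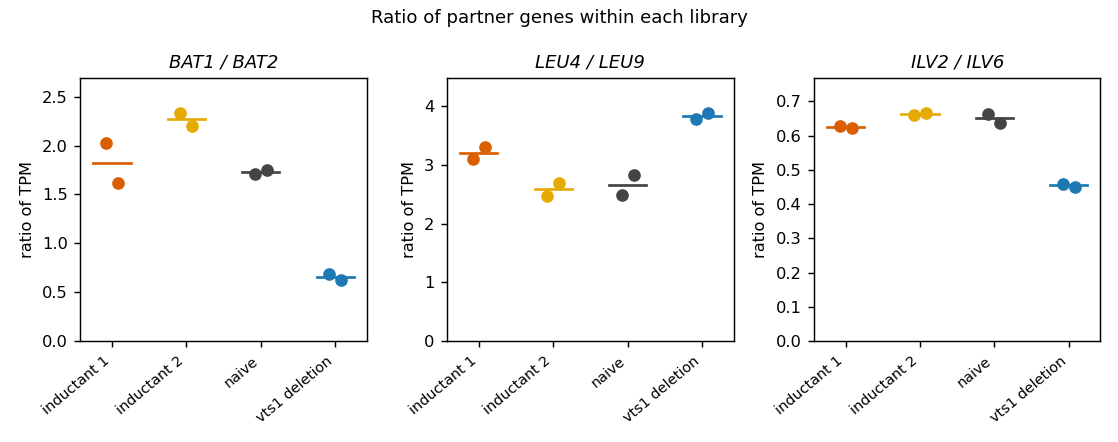
Ratio of TPM of BAT1 to BAT2, LEU4 to LEU9 and ILV2 to ILV6 in each library. Points are libraries and bars group means on axes that start at 0. The deletion libraries lie below the other 6 for BAT1 to BAT2 and ILV2 to ILV6, and above them for LEU4 to LEU9.

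Against the deletion, the inductants had 8 of the 10 genes higher, 0 lower and 2 not called, where 37.6% of all genes were called, 18.7% higher and 19.0% lower. Of the 2 not called, ILV5 had a negative log2 fold change with an unadjusted p of 0.0219 (edgeR). The median log2 fold change of the members was 1.01, against -0.020 over all genes. OAC1 differed most, by 1.84 ± 0.08 (adjusted p = 9.40e-08), and was followed by LEU1 at 1.62 ± 0.06 and BAT1 at 1.61 ± 0.06 (adjusted p = 5.96e-08 each). LEU9 stood at 1.41 ± 0.10, ILV2 at 1.03 ± 0.07, LEU4 at 0.995 ± 0.146, ILV3 at 0.61 ± 0.10 and ILV6 at 0.53 ± 0.08. These 8 calls held in each of the 16 alternatives tried. BAT2 gave -0.018 ± 0.075 (adjusted p = 0.879) and ILV5 gave -0.18 ± 0.07 (adjusted p = 0.0564). By edgeR, ILV5 was called lower with upper-quartile scaling (-0.21, adjusted p = 0.0313), with no filter (-0.19, adjusted p = 0.0376) and with only the groups compared (-0.18, adjusted p = 0.0248). It gave -0.24 without inductant 1 replicate 1, -0.19 without naive replicate 1 and -0.18 without naive replicate 2. These values average unlike groups. Inductant 1 had a mean of 848 CPM of ILV5 and inductant 2 of 1170 CPM, against 1127 CPM in the deletion.

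Between the inductants and naive cells the members differed little. OAC1 was higher by 0.29 ± 0.07 (adjusted p = 0.0345), 1 of 10 genes called, where 8.57% of all genes were called, 2.97% higher and 5.60% lower. The call for OAC1 held without naive replicate 2 and was lost without any 1 of the other 7 libraries, with an adjusted p of up to 0.123 and log2 fold changes from 0.25 to 0.31. The members' median was 0.21, against -0.0073 over all genes. LEU4 gave 0.32 ± 0.15 (adjusted p = 0.219), ILV3 0.30 ± 0.10 (adjusted p = 0.0969), ILV5 0.24 ± 0.07 (adjusted p = 0.0539), LEU9 0.22 ± 0.09, ILV6 0.20 ± 0.07, ILV2 0.19 ± 0.07 and BAT1 0.093 ± 0.063. The value of ILV5 averages unlike groups, since inductant 1 had a mean of 848 CPM and inductant 2 of 1170 CPM, against 843 CPM in naive. LEU1 gave -0.12 ± 0.06 (adjusted p = 0.252) and BAT2 -0.13 ± 0.07 (adjusted p = 0.276). All 4 inductant libraries lay above both naive libraries for ILV2, ILV3 and OAC1, which 14.9% of all genes did.

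The members' median against naive differed most between the fits that left out a naive library. In naive replicate 1 LEU4, LEU9, ILV2, ILV3, ILV5, ILV6, BAT1, BAT2 and OAC1 were lower than in replicate 2, while LEU1 was higher. Without naive replicate 2 the members' median was 0.32, with 0.64 for LEU4, 0.53 for ILV3, 0.43 for LEU9 and -0.20 for LEU1. Without naive replicate 1 the median was 0.063. Each of these fits holds 1 naive library, so the spread between naive libraries does not enter them. ILV5 gave 0.27 without inductant 1 replicate 2.

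Inductant 1 and inductant 2 differed in 1 of the 10 genes, where 0.449% of all genes were called. ILV5 was lower in inductant 1 by 0.46 ± 0.08 on the log2 scale (adjusted p = 0.0385). This call was lost without inductant 1 replicate 1 (-0.55, adjusted p = 0.0743) or 2 (-0.36, adjusted p = 0.358), inductant 2 replicate 1 (-0.42, adjusted p = 0.434) or 2 (-0.48, adjusted p = 0.0585), or deletion replicate 1 or 2 (-0.45 each, adjusted p = 0.10045 and 0.10061). BAT1 gave -0.25 ± 0.07 (adjusted p = 0.148), LEU9 -0.26 ± 0.11 (adjusted p = 0.297) and LEU1 -0.20 ± 0.07 (adjusted p = 0.202). BAT1 and LEU9 were called without naive replicate 1 (-0.23, adjusted p = 0.0402, and -0.24, adjusted p = 0.0327) or replicate 2 (-0.25, adjusted p = 0.0386, and -0.26, adjusted p = 0.0288), and LEU1 without naive replicate 2 (-0.20, adjusted p = 0.0471). In these fits 5.07% and 4.98% of all genes were called.

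Genes that feed, regulate or draw on the pathway were read from lists of 28 genes, all of them tested. From naive to deletion 10 of the 28 fell, 3 rose and 15 were not called, with a median of -0.21, where 14.6% of all genes were called lower and 11.7% higher and the median was 0. Of 6 genes that supply the isoleucine precursor, 4 fell: ILV1, threonine deaminase, by 0.40 ± 0.08 (adjusted p = 0.00501), THR4, threonine synthase, by 0.33 ± 0.06, THR1, homoserine kinase, by 0.33 ± 0.07 and HOM6, homoserine dehydrogenase, by 0.30 ± 0.07. HOM2 (-0.54) and HOM3 (-0.44), which act earlier in that route, were not called (adjusted p = 0.0781 and 0.282), and naive replicate 1 held 190 and 90.9 CPM of them against 285 and 159 CPM in replicate 2. Without deletion replicate 2, ILV1 gave -0.38, THR1 -0.28 and THR4 -0.32. HOM6 gave -0.23 without deletion replicate 1.

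Among the regulators, LEU3 itself stood at 53.6 and 52.0 CPM in the deletion and 52.1 and 54.7 CPM in naive. Its log2 fold change was -0.017 ± 0.088 (adjusted p = 0.912), and it took the other sign under 5 of the 16 alternatives, among them upper-quartile scaling (0.025). GCN4 stood at 745 and 725 CPM in the deletion and 944 and 1095 CPM in naive, and fell by 0.47 ± 0.08 (adjusted p = 0.00133). GCN2, the kinase that controls translation of GCN4, rose by 0.36 ± 0.06 (adjusted p = 0.00251). Counts of GCN4 transcript do not show how much Gcn4 protein was made, since GCN4 is regulated mainly in translation.

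Both other genes listed as Leu3-bound fell. BAP2, the main permease for leucine, isoleucine and valine, stood at 239 and 238 CPM in the deletion and 433 and 579 CPM in naive, and fell by 1.08 ± 0.12 (adjusted p = 0.000246), or by 1.27 and 0.86 without naive replicate 1 and 2. GDH1, which makes glutamate, fell by 0.53 ± 0.06 (adjusted p = 0.000217). Each of them carries 1 Leu3 motif match of the letters CCGGAACCGG. A match was also found before HOM2 (-0.54, adjusted p = 0.0781) and PAN5 (-0.067, adjusted p = 0.661), which were not called. Of 10 genes for uptake and its sensor, BAP2 among them, 4 fell and 1 rose. BAP3, a further permease, fell by 0.75 ± 0.18 (adjusted p = 0.0270), TAT1 by 0.41 ± 0.07 and the transcription factor gene STP2 by 0.56 ± 0.10, whereas the general permease gene GAP1 rose by 0.65 ± 0.12 (adjusted p = 0.00296). BAP3 gave -0.74 without either inductant 2 library, and -0.71 and -0.77 without deletion replicate 1 and 2. It gave -1.02 and -0.40 without naive replicate 1 and 2.

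Of 5 genes for decarboxylation of the 2-oxo acids, ARO10 rose by 1.21 ± 0.13 in the deletion (adjusted p = 0.000333), with 431 and 430 CPM against 161 and 210 CPM in naive and 234 to 276 CPM in the inductants. Its enzyme removes carbon dioxide from 2-oxo acids on the way to fusel alcohols. THI3, PDC1, PDC5 and PDC6 were not called, nor were the 3 pantothenate genes ECM31, PAN5 and PAN6.

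**Figure D4:**
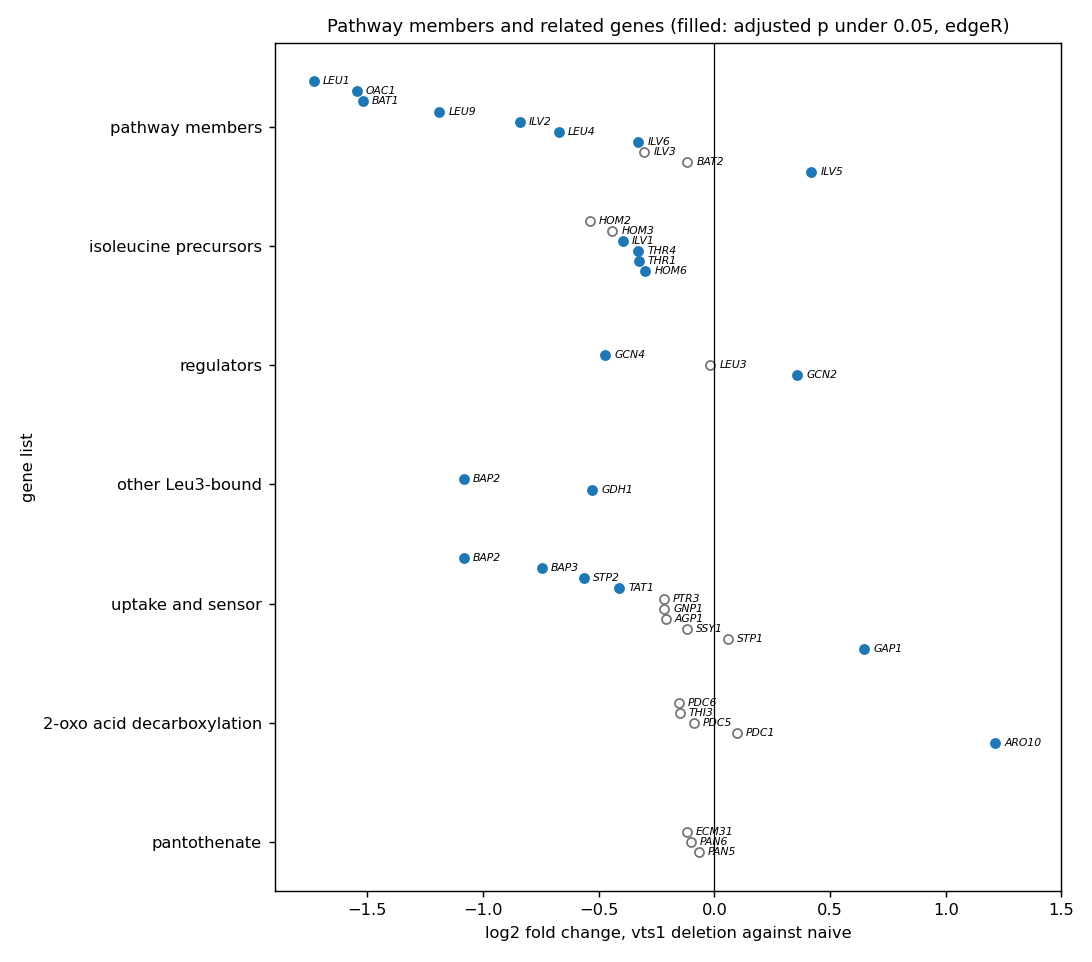
Log2 fold change from naive to the vts1 deletion for the 10 members and the 28 related genes by list, with BAP2 in both of its lists. Filled points passed an adjusted p of 0.05. The members reach from -1.73 to 0.42, and ARO10 at 1.21 is the highest point.

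Against the deletion, the inductants had 15 of the 28 related genes higher and 3 lower, where 18.7% of all genes were higher and 19.0% lower. All 6 isoleucine precursor genes were higher, by 0.37 (HOM6) to 1.10 (HOM3), and so were GCN4 (0.60 ± 0.07), GDH1 (0.55 ± 0.05), BAP2 (1.10 ± 0.10), BAP3 (0.99 ± 0.16), TAT1, GNP1, PTR3, STP2 and PDC5. ARO10 (-0.77 ± 0.11), GAP1 (-0.45 ± 0.10) and GCN2 (-0.23 ± 0.06) were lower, and LEU3 gave 0.11 ± 0.08 (adjusted p = 0.296). Leaving out either deletion library gave 0.82 and 0.74 for HOM2, 1.11 and 1.07 for HOM3, -0.25 and -0.24 for GCN2 and 0.35 and 0.40 for STP2. GAP1 gave -0.44 without deletion replicate 1 and PDC5 0.38 without deletion replicate 2. HOM3 gave 1.05 without inductant 2 replicate 2. Against naive, ARO10 (0.44 ± 0.11, adjusted p = 0.0488) and PDC5 (0.33 ± 0.08, adjusted p = 0.0357) were higher in the inductants. Both were lost without any 1 library other than naive replicate 2 (ARO10 0.26 to 0.49, PDC5 0.29 to 0.34). Without naive replicate 2, GCN4 gave 0.24. LEU3, GCN4 and GCN2 gave 0.091, 0.13 and 0.12 with all libraries (adjusted p = 0.479, 0.235 and 0.190). Between inductant 1 and inductant 2, edgeR called 0 of the 28, and LEU3, GCN4 and GCN2 gave -0.15, 0.080 and -0.10 (adjusted p = 0.447, 0.671 and 0.483).

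OAC1 had the widest range of group means among the members, 1.88 on the log2 scale. The pattern most like that of OAC1 over the 8 libraries, by root mean square difference of centred log2 CPM, was that of BAT1 at 0.12 among the members, followed by LEU1 at 0.19 and LEU9 at 0.21. Outside the pathway the closest 5 genes were HXT3 at 0.18, HXT1 at 0.22, ANB1 at 0.23, CIT2 at 0.25 and AAD3 at 0.25. HXT3 and HXT1 encode hexose transporters and CIT2 the peroxisomal citrate synthase. These 5 had log2 fold changes from naive to deletion between -2.01 (CIT2) and -1.19 (AAD3). ILV5, at 0.88, was the member least like OAC1.

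Set beside the Leu3 motif, the members with a match ranged from -1.73 (LEU1) to 0.42 (ILV5) from naive to deletion, and the 3 without ranged from -0.67 (LEU4) to -0.30 (ILV3). BAT1, ILV2 and ILV5, whose matches have the same letters, gave -1.52, -0.84 and 0.42. Over all 183 tested genes with a match, the 7 members among them, the median was -0.022, against -0.0041 for genes without. Of the 183, 41 were called lower (22.4%), LEU1, LEU9, BAT1, ILV2 and OAC1 among them, and 25 higher. Among all genes tested, 14.6% were called lower and 11.7% higher. For the Gcn4 motif the median over 732 tested genes, 8 members among them, was -0.046, against 0.0022 for the rest. Of the 732, 130 were called lower (17.8%) and 68 higher. Of the 10 members 0 held a predicted Vts1 hairpin in its coding sequence (loop C-N-G-G and up to 3 more bases, closed by 5 Watson-Crick pairs). Of 5995 coding sequences 7.04% did, and with so few members 0 of 10 does not set them apart from that share. Untranslated regions were not searched.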

How the data were processed

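RNA from 8 libraries, 2 per group, was measured, with groups and replicate numbers taken from the titles. The authors used kallisto with build R64, per the submitters' processing notes; its version, the read layout and any use of strand are unstated. The deposited files give estimated counts and TPM for each open reading frame, per the file headers. All but a few row lengths (99.97%) divide by 3: they are coding lengths. With strand use unknown, overlapping genes cannot be told apart.

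For testing, estimated counts were rounded and entered into edgeR 4.0.16 (R 4.3.3) with TMM factors of 0.946 to 1.09, filterByExpr (6230 genes kept), a robust two-sided quasi-likelihood fit with 4 residual degrees of freedom, and Benjamini-Hochberg adjustment over all genes kept. SEs come from that fit, which was tested on simulated data with the same variation in all genes and groups. The wider spread of the naive pair was not simulated. The named alternatives used RLE or upper-quartile scaling, no filter, DESeq2 1.42.0, limma 3.58.1 on log2(TPM + 1) or log2(TPM + 0.1), only the groups compared, a replicate block, or 1 library fewer. No source says that the replicates were separate cultures from start to end, so p-values measure the spread between these samples. A count of 0 allows up to 3 counts, 0.109 to 0.163 CPM, for counting error only.

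The members and lists were chosen with earlier results of these data known. Genes are named when they are members, when a listed related gene was called, when they regulate the pathway (LEU3, GCN4, GCN2), or when they are among the 5 genes most like the member of widest range; others named were chosen after their values were seen. Sequences and symbols are from RefSeq (R64).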

Additional observations from a re-analysis of the deposited data

Results flagged for a closer look

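The 2 inductants differed in ILV5. Inductant 1 against inductant 2 gave a log2 fold change of -0.46 (adjusted p = 0.0385, edgeR), with 903 and 792 CPM in inductant 1 and 1198 and 1141 CPM in inductant 2, beside 804 and 882 CPM in naive. The call was lost in 6 of the 8 fits that left out 1 library. Groups of 2 libraries were not checked for single outlying libraries.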

How the results depend on the processing

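From naive to deletion, the calls of LEU1, LEU9, BAT1, ILV2, ILV5 and OAC1 held in all 16 alternatives, and so did the 8 calls of the inductants against the deletion. LEU4 was called in 11, ILV6 in 10, ILV1, HOM6 and THR4 in 13 each, THR1 in 15 and BAP3 in 9, with losses under limma for all of these but THR1. ILV3, uncalled, was called with DESeq2 (-0.31, adjusted p = 0.0271) and gave -0.49 without naive replicate 1. The number of members called against naive in the inductants was 1, and became 2 with RLE scaling, 4 with DESeq2, 0 with limma at either pseudocount and 0 to 8 without 1 library. Over all genes, 534 were called, 524 with RLE scaling, 667 with DESeq2, 236 and 223 with limma and 277 to 1221 without 1 library. That of related genes was 2, and became 1 with no filter, 4 with DESeq2, 1 and 0 with limma at pseudocounts of 1 and 0.1, 0 with only the groups compared and 0 to 12 without 1 library. Between the inductants 1 member was called, 0 with limma at either pseudocount and 0 to 4 without 1 library, where 28 of all genes were called, 2 and 3 with limma and 1 to 318 without 1 library; 0 related genes became 1 with no filter, 2 with DESeq2, 2 with only the groups compared and 0 to 2 without 1 library.

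Uncalled values changed sign. LEU3 from naive to deletion gave 0.0252 with upper-quartile scaling, 0.0719 and 0.0752 with limma and -0.0419 to 0.0191 without 1 library. BAT2 in the inductants against the deletion gave -0.1057 to 0.049 without 1 library. Between the inductants ILV2 gave -0.0215 with upper-quartile scaling and -0.0293 to 0.0664 without 1 library, ILV3 gave 0.006 with limma at either pseudocount, and LEU4 and BAT2 gave -0.0161 to 0.1511 and -0.0067 to 0.189 without 1 library. The cause of these changes was not tested.

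Replicate numbers are shared by the groups, and same-numbered libraries deviated together with correlations of -0.11 to 0.11 over all genes. A low correlation over all genes cannot show whether same-numbered samples were paired or shared a batch. With a replicate block, 2 members instead of 1 were called in the inductants against naive, with ILV5 added, and 2 related genes instead of 0 between the inductants. Over all genes the block moved the share called from 8.57% to 10.4% against naive and from 0.449% to 2.25% between the inductants.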
